A study of Mus musculus with 40 samples.

Results

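The genes described here mark the medium spiny neurons of the striatum, and were followed in cortex and cerebellum over the 10 groups of arrays of the series. The labels do not say whether both regions came from the same mice. All 9 genes (Drd1a, Drd2, Adora2a, Gpr6, Penk, Tac1, Ppp1r1b, Pde10a and Rgs9) were found among 36362 gene names on the arrays, through 13 of the 55589 probes kept, by a probe annotation equal to the gene name. RNA of each region was hybridized to Agilent 1-colour arrays, 40 in all and 4 mice per group. All mice were C57Bl/6. In each region the groups were wild-type mice at 2 months on the normal diet of 36 mg α-tocopherol per kg (young), wild-type mice at 29 months on that diet (aged controls), wild-type mice at 29 months on a deficient diet (wild-type deficient), and Ttpa-/- mice at 29 months on the deficient diet (Ttpa-/- deficient) or on 600 mg per kg (Ttpa-/- supplemented). The product of Ttpa, the α-tocopherol transfer protein, keeps vitamin E in the circulation.

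Medium spiny neurons are the inhibitory output neurons of the striatum and receive dense dopamine input. One population carries the D1 dopamine receptor and substance P and projects directly to the output nuclei of the basal ganglia. The other carries the D2 dopamine receptor, an adenosine receptor (Adora2a), Gpr6 and enkephalin and acts through the indirect pathway. In both populations cyclic AMP is the shared second messenger, which Pde10a degrades and to which DARPP-32, the product of Ppp1r1b, responds. The genes are not confined to the striatum, and cortical neurons express several of them.

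Values are log2 signals relative to the 75th percentile of each array, so 0 is the level of that percentile and each unit is a doubling. A difference was called when limma gave a Benjamini-Hochberg adjusted p under 0.05 over all probes tested and the fold change was over 1.5. The 75th percentile lay between 365 and 925 intensity units, and 28580 to 34128 probes per array were well above background. Of the Ttpa probes, one was above background on 12 of 12 wild-type and 1 of 8 Ttpa-/- cerebellum arrays, and the other on 1 of 40 arrays. The 10 cortical excitatory neuron markers were all above background on every cortex array, with a summed signal of 50.7 to 82.5 times the percentile, against 5.29 to 6.88 in the cerebellum, which goes with the labelled regions. Arrays with the same scan date in the file headers were counted as 1 slide, since the labels name none. The 5 slides held 8 arrays each. The aging comparison in the cortex was made within 1 slide, as was that of Ttpa-/- supplemented with wild-type deficient cortex. So were those of wild-type deficient cerebellum with the controls and of the diets in Ttpa-/- cerebellum. In every other comparison, the 3 of diet or genotype with the aged controls in the cortex, aging in the cerebellum, the regions and the interactions among them, slide and condition cannot be told apart.

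The stretch before the transcription starts of these genes was searched for the letters of the cAMP response element. This is the site of CREB, a factor that medium spiny neurons use downstream of dopamine and adenosine receptors. The reference table (RefSeq, GRCm38.p6) held 8 start windows for 6 of the 9 genes, with Drd1a listed as Drd1, and none for Adora2a, Ppp1r1b or Penk. The 250 bases before the start are shown for 2 genes whose window holds the letters and for 2 whose window does not, with the match in capitals.
Gpr6 (chr10:41072291-41072540, minus strand): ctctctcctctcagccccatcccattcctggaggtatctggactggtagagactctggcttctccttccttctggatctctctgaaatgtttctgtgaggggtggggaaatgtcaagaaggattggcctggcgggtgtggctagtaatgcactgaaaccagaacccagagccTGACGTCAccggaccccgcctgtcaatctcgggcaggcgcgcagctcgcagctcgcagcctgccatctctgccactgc
Tac1 (chr6:7554811-7555060, plus strand): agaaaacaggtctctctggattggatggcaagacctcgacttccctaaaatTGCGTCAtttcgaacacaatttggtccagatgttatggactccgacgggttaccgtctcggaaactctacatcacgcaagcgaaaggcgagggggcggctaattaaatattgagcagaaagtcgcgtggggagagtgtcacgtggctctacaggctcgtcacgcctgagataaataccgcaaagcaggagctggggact
Drd2 (chr9:49340153-49340402, plus strand): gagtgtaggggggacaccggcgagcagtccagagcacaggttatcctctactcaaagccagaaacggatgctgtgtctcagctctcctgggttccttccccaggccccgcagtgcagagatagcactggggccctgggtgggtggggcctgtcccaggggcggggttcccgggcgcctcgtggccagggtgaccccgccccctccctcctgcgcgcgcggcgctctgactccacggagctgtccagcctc
Rgs9 (chr11:109298182-109298431, minus strand): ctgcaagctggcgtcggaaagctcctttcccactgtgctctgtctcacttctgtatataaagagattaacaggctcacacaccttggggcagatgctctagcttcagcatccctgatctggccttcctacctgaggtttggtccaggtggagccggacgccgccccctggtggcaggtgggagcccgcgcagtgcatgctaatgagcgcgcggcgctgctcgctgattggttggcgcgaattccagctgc

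Gpr6 held the full palindrome TGACGTCA 78 bases before its start. Tac1 held a shorter form, TGACGCA, on the other strand as TGCGTCA, 199 bases before its start. Both strands were searched for these forms, which do not overlap each other. Other short forms, such as TGACG alone, were not searched or marked. Each searched form was held by 1 of the 8 windows of these genes, and the windows of Drd1 and Pde10a held neither. Of 32851 windows of this length, 1.55% held the full form and 1.75% the shorter one. Any link of these letters to the array values was not tested. A match of letters is a description of the sequence and not of a bound site.

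Of the 9 genes, Drd1a differed most between the regions of young mice. Drd1a, the D1 receptor (probe at chr13:54147277-54147336, mm9), gave -0.56, -0.18, -0.42 and -0.10 on the young cortex arrays and -6.58, -6.82, -6.72 and -4.66 on the young cerebellum arrays. It was above background on all 20 cortex arrays and on 2 of 20 cerebellum arrays, 1 young and 1 aged wild-type. The fitted difference was 5.88 ± 0.40 (SE) in young mice and 4.73 ± 0.40 in the aged controls, and the cerebellum values behind it were mostly not above background. With normexp background correction these differences were 2.84 and 2.46. Adora2a, the adenosine receptor (chr10:74797461-74797520), was at 0.12, 0.78, -0.02 and 0.85 in young cortex and at -3.00, -3.00, -3.18 and -2.45 in young cerebellum. All cortex arrays lay above the highest cerebellum array of -2.28, except for aged control replicate 4 at -2.59.

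Gpr6, an orphan receptor that raises cyclic AMP (chr10:40790325-40790384), was higher in young cortex by 1.08 ± 0.15. Drd2, the D2 receptor (chr9:49215047-49215106), lay between -4.12 and -2.37 over the cortex arrays, was above background on 19 of 20, and was higher in young cortex than in young cerebellum by 1.09 ± 0.30. Without young cerebellum replicates 1 and 2, taken out together after the values were seen, the Drd2 difference was 0.69 and its adjusted p 0.104. With normexp correction it was 0.63 and called.

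Of the peptide precursors, Tac1 was called and Penk was not. Tac1, the substance P precursor (chr6:7512893-7512952), was at 3.19, 3.28, 3.25 and 3.17 in young cortex and at -3.64, -2.48, 1.27 and 2.01 in young cerebellum, a difference of 3.93 ± 0.69, and of 1.58 without young cerebellum replicates 1 and 2. Penk, the enkephalin precursor (chr4:4060724-4060783), was at 5.14 to 5.32 in young cortex and at 4.94 to 4.96 in young cerebellum, and was not called there (adjusted p = 0.294). Of the signalling proteins, Rgs9, a G-protein regulator enriched in striatum (chr11:109086669-109086728), was higher in young cortex by 3.56 ± 0.30. Ppp1r1b, encoding DARPP-32 (chr11:98218965-98219024), and Pde10a, the striatal phosphodiesterase (chr17:9174995-9175054), differed by -0.12 ± 0.23 and 0.31 ± 0.16 between young cortex and cerebellum.

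In all, 6 of 9 genes were called higher in young cortex than in young cerebellum, where 19.1% of all 30203 probes tested were called higher. Among the aged controls 5 of 9 were called, 3 higher (Drd1a, Adora2a and Rgs9) and 2 lower in cortex (Penk by -0.63 ± 0.24 and Ppp1r1b by -0.66 ± 0.23), against 33.6% of all probes called in either direction. Without aged cerebellum replicate 4 the last count was 3, since Penk and Ppp1r1b were not called, and Penk was also not called without aged cortex replicate 2 or aged cerebellum replicate 2. Penk, Ppp1r1b and Pde10a were the genes not called between the regions of young mice. They were well above background on all arrays of both regions, as were Adora2a, Gpr6, Tac1 and Rgs9, which were called there.

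**Figure D1:**
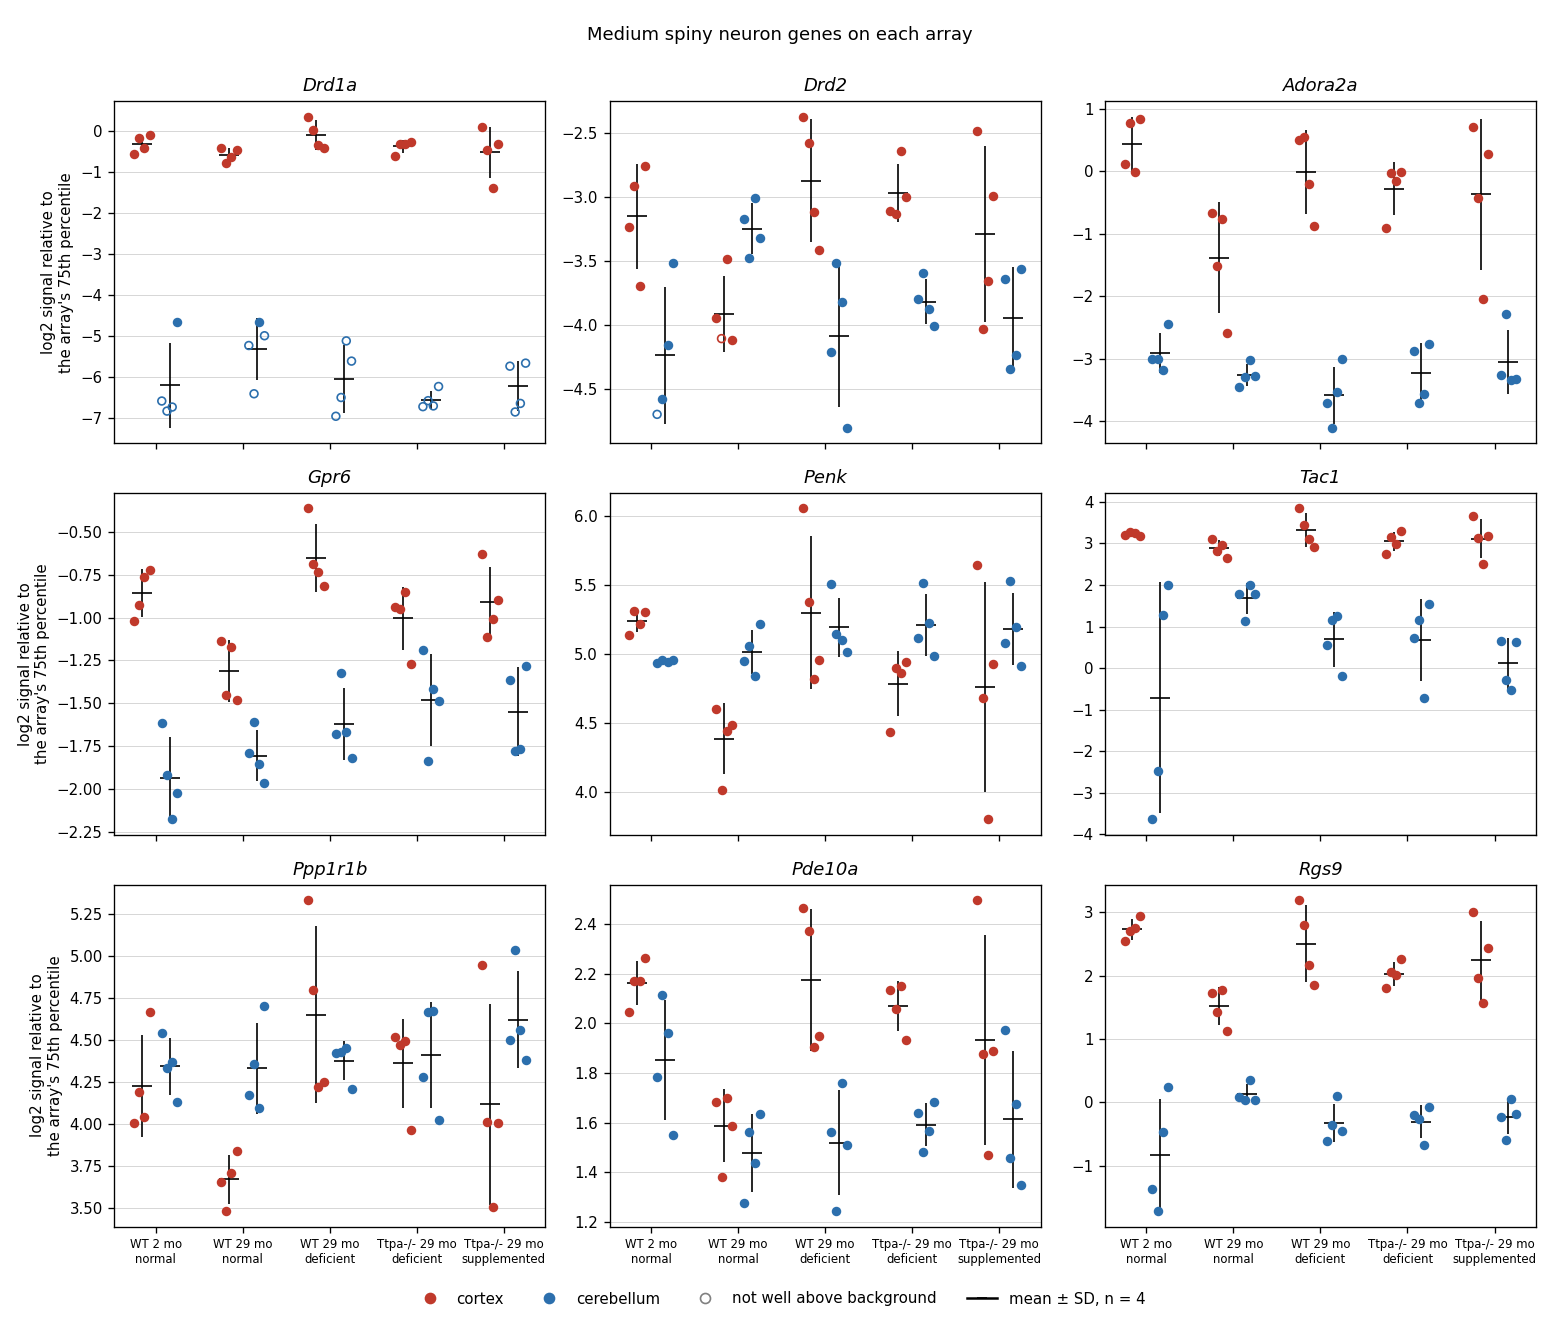
Log2 signal relative to the array's 75th percentile (y axis, 1 panel per gene with its own scale) on every cortex array (red) and cerebellum array (blue) of the 5 conditions (x axis, WT is wild type and mo is months). Each point is 1 mouse, open points were not well above background, and bars are mean ± SD of 4 arrays. The aged control cortex group has the lowest cortical mean in all 9 panels, and Drd1a in the cerebellum is mostly open points.

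The comparison of aged with young wild-type cortex asked what aging does to these genes. All 9 had a lower mean in the aged cortex, with differences from -1.82 to -0.27 and a median of -0.58, where the median over 28043 probes tested was -0.03 and 56.4% of them were lower. This direction held for all 9 genes under each scaling, correction and left-out array tried. Adora2a, Penk and Rgs9 were called lower, 3 of 9 genes, against 0.499% of all probes called lower. In 7 of 9 genes the 4 aged arrays lay apart from the 4 young arrays, against 14.0% of all probes, and Drd1a and Drd2 were the genes that overlapped. In bulk tissue, fewer cells of a type and less RNA per cell cannot be told apart.

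Adora2a was at -0.67, -1.51, -0.77 and -2.59 in aged cortex against the young values above, a 3.52-fold lower signal (-1.82 ± 0.43, adjusted p = 0.0100). Aged replicate 4 was the lowest of the aged arrays, and the highest aged array was still below the lowest young one. Rgs9 was at 2.54, 2.70, 2.75 and 2.94 in young cortex and at 1.72, 1.43, 1.78 and 1.13 in aged cortex (-1.21 ± 0.30, adjusted p = 0.0155). Its groups were apart, again with aged replicate 4 lowest. Penk was at 5.14, 5.32, 5.22 and 5.31 in young cortex and at 4.60, 4.02, 4.45 and 4.49 in aged cortex (-0.86 ± 0.24, adjusted p = 0.0362).

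Pde10a fell short of the fold threshold, with 2.05 to 2.26 in young and 1.38 to 1.70 in aged cortex (-0.58 ± 0.16, adjusted p = 0.0325). The difference was -0.45 ± 0.15 for Gpr6 (adjusted p = 0.0799), -0.55 ± 0.23 for Ppp1r1b (0.224) and -0.76 ± 0.30 for Drd2 (0.172). For the genes of the direct pathway it was -0.34 ± 0.69 for Tac1 (0.897) and -0.27 ± 0.40 for Drd1a (0.846). These SEs pool the spread of the groups of both regions. The SD of Tac1 was 0.0492 in young and 0.194 in aged cortex, but 2.77 in young cerebellum. That of Drd1a was 0.21 and 0.17 in young and aged cortex, but 1.03 and 0.76 in young and aged cerebellum. These tests thus cannot tell whether either gene is unchanged with age in cortex. The cortex arrays of Tac1 lay apart and those of Drd1a overlapped. Whether the direct and indirect pathway genes differed from each other was not tested.

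Without aged cortex replicate 4, limma called 0 of 9 genes, with a difference of -1.41 for Adora2a (adjusted p = 0.0598) and of -1.09 for Rgs9 (0.0559). On that array the summed signal of 9 choroid plexus markers was 5.11, against 53.8 to 151 on the other aged controls, and on young replicate 4 it was 3.01, against 119 to 138 on the other young arrays; its part in the result was not tested. Penk was not called without that array, without any single young array, or without aged replicate 2 or 3. In a fit of the compared groups alone Adora2a had an adjusted p of 0.102.

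The comparisons with the aged controls asked what vitamin E deficiency and the loss of Ttpa do. They and the aging comparison share the same 4 control arrays, so their values are given side by side and are not independent. In wild-type deficient cortex 9 of 9 means were higher than in the controls, with a median difference of 0.91 and a range of 0.43 to 1.38, against a median of 0.01 over all probes. Gpr6 was the 1 gene called, against 0.117% of all probes called higher. At an unadjusted p under 0.05 there were 7 of 9 genes. No share of all probes was counted at the unadjusted threshold, here or below, so the percentages of probes called are not its background. For 7 of 9 genes the deficient arrays did not overlap the controls, as for 2826 of the 28254 probes tested. In Ttpa-/- deficient cortex 9 of 9 means were higher (median 0.48, all probes -0.02), and 2 genes, Drd2 and Ppp1r1b, were called, against 3.14% of all probes called higher, with 5 at an unadjusted p under 0.05. Its 4 arrays did not overlap the controls for 4 of 9 genes, against 23.4% of all probes. In Ttpa-/- supplemented cortex 9 of 9 means were higher (median 0.40), 0 genes were called by limma, against 0.0920% of all probes, and 5 had an unadjusted p under 0.05. The last median was 0.17 without Ttpa-/- supplemented replicate 1 and 0.65 without its replicate 3, and 8 of 9 means were higher without its replicate 1 or 4 or without control replicate 2.

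Gpr6 was at -0.36, -0.68, -0.74 and -0.82 in wild-type deficient cortex and at -1.14, -1.45, -1.17 and -1.48 in the controls (0.66 ± 0.15, adjusted p = 0.0370). These groups lay apart. The Gpr6 call was lost without any 1 of replicates 1, 2 and 3 of either group, and 0 genes were called without any of these but deficient replicate 3. Without replicate 4 of the deficient group 7 of 9 genes were called, and without replicate 4 of the controls 2 were. Ppp1r1b was at 5.34, 4.80, 4.22 and 4.25 in wild-type deficient cortex against 3.66, 3.48, 3.71 and 3.84 in the controls (0.98 ± 0.23, adjusted p = 0.0512). Penk was at 6.06, 5.38, 4.82 and 4.96 in wild-type deficient cortex (0.91 ± 0.24, adjusted p = 0.0737), with replicate 1 the highest of all 20 cortex arrays.

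In Ttpa-/- deficient cortex Drd2 was at -3.11, -3.13, -2.64 and -3.00, against -3.94, -4.10, -3.48 and -4.12 in the controls (0.94 ± 0.30, adjusted p = 0.0245). Control replicate 2 was not above background. Ppp1r1b was at 4.52, 4.47, 4.50 and 3.96 in these Ttpa-/- mice (0.69 ± 0.23, adjusted p = 0.0356), above all 4 controls. Pde10a lay between 1.93 and 2.15 there (0.48 ± 0.16, adjusted p = 0.0323), short of the fold threshold. Drd2 was not called without control replicate 1, 2 or 4 or Ttpa-/- replicate 3, and with the normexp background correction its difference was 0.32. Ppp1r1b was not called without control replicate 1, 2 or 3 or Ttpa-/- replicate 1, 2 or 3. Without any 1 of these arrays or control replicate 4 the count was 1 or 0, and 0 genes were called without control replicate 2 or Ttpa-/- replicate 3. Adora2a had the largest difference in all 3 comparisons (1.38 ± 0.43, 1.11 ± 0.43 and 1.02 ± 0.43) and was called in none, with adjusted p of 0.120, 0.0687 and 0.467.

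**Figure D2:**
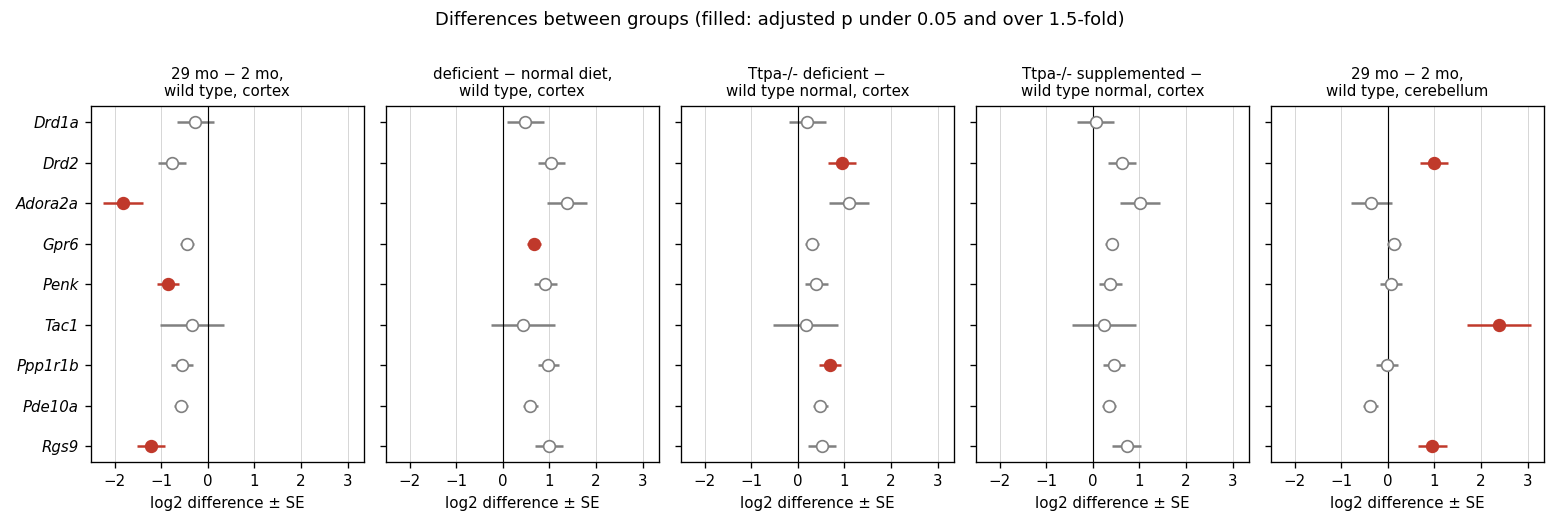
Log2 difference ± SE from limma (x axis) for each gene (y axis) in 4 comparisons within cortex and the aging comparison in cerebellum; filled red points were called and open points were not. The cortex points lie left of 0 for aging and right of 0 in the next 3 panels, which share the aged control arrays with it. Drd1a was not tested in the cerebellum.

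The remaining cortex comparisons did not use the aged controls. Between Ttpa-/- deficient and wild-type deficient mice, 9 of 9 means were lower in Ttpa-/- (median -0.28) and limma called 0, against 3.07% of all probes, with 2 at an unadjusted p under 0.05. Without wild-type deficient replicate 1 this median was -0.10 and 8 of 9 means were lower. Between Ttpa-/- deficient and Ttpa-/- supplemented mice the differences ran from -0.21 to 0.32 and 0 were called, against 3.31% of all probes, with 0 at an unadjusted p under 0.05. Without Ttpa-/- supplemented replicate 1, 9 of 9 means were higher on the deficient diet (median 0.32), and without its replicate 3, 2 of 9 were (median -0.15). Between Ttpa-/- supplemented and wild-type deficient mice, on 1 slide, 9 of 9 means were lower in Ttpa-/- (median -0.36) and 0 were called, against 0.0316% of all probes, with 2 at an unadjusted p under 0.05. This median was -0.13, with 7 of 9 means lower, without Ttpa-/- supplemented replicate 3, -0.62 without its replicate 1, -0.22 without its replicate 2 and -0.19 without wild-type deficient replicate 1. A further fit left out the 3 cortex arrays where the 9 genes on average lay farthest from their group means. These were replicate 1 of wild-type deficient and replicates 1 and 3 of Ttpa-/- supplemented, taken out after the values were seen. In that fit Drd2 was 0.07 higher in Ttpa-/- deficient than in wild-type deficient mice. Adora2a and Tac1 were 0.11 and 0.01 higher in Ttpa-/- supplemented than in wild-type deficient mice.

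The 5 cortex groups were ordered by their means for each gene, which sets the groups with the closest means beside each other. The aged controls were lowest for 9 of 9 genes, and the highest was the wild-type deficient group for 7 genes and the young group for Adora2a and Rgs9. Of 36 pairs of neighbouring groups, 34 overlapped, which this ordering favours. No share over all probes was counted for it. The exceptions were Penk, whose young arrays lay above those of the group next below, and Rgs9, whose aged control arrays lay below the next group, Ttpa-/- deficient.

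Within the groups of cortex arrays the 9 genes deviated together. After each group mean was taken off, all 36 pairs of genes were positively correlated over the 20 cortex arrays, with a median Pearson r of 0.751 (0.513 to 0.953) and a median Spearman rho of 0.716. The points share their array, its scaling and its dissected piece of tissue, so these are descriptions of arrays and not of cells. Without the 2 arrays farthest from the median (Ttpa-/- supplemented replicates 1 and 3) the median r was 0.641 and 36 of 36 pairs stayed positive. Within the slide of young mice and aged controls it was 0.505 (35 of 36 positive), and within the slide of the wild-type deficient and Ttpa-/- supplemented groups 0.911. In the cerebellum the median r was -0.12 (-0.471 to 0.843) and 12 of 36 pairs were positive. The highest were Tac1 with Rgs9 (0.843) and Ppp1r1b with Penk (0.781), and the lowest was Penk with Gpr6. Drd1a, part of these pairs, was above background on 2 of 20 cerebellum arrays.

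On some cortex arrays all 9 genes lay on the same side of their group mean. In Ttpa-/- supplemented cortex all 9 genes of replicate 1 lay above their group mean, by 0.28 to 1.08, and all 9 genes of replicate 3 below it, by values from -1.68 to -0.10. Penk read 5.64, 4.68, 3.80 and 4.93 on these 4 arrays, and Adora2a 0.72, -0.42, -2.04 and 0.28. The lowest Penk value of all 20 cortex arrays was thus in this group, as was the second highest. In wild-type deficient cortex all 9 genes of replicate 1 lay above their mean (0.29 to 0.75) and all 9 of replicates 3 and 4 below it. Without the 3 arrays at the extremes, limma called 0 of 9 genes between wild-type deficient cortex and the controls, with Gpr6 at 0.57 (adjusted p = 0.291).

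**Figure D3:**
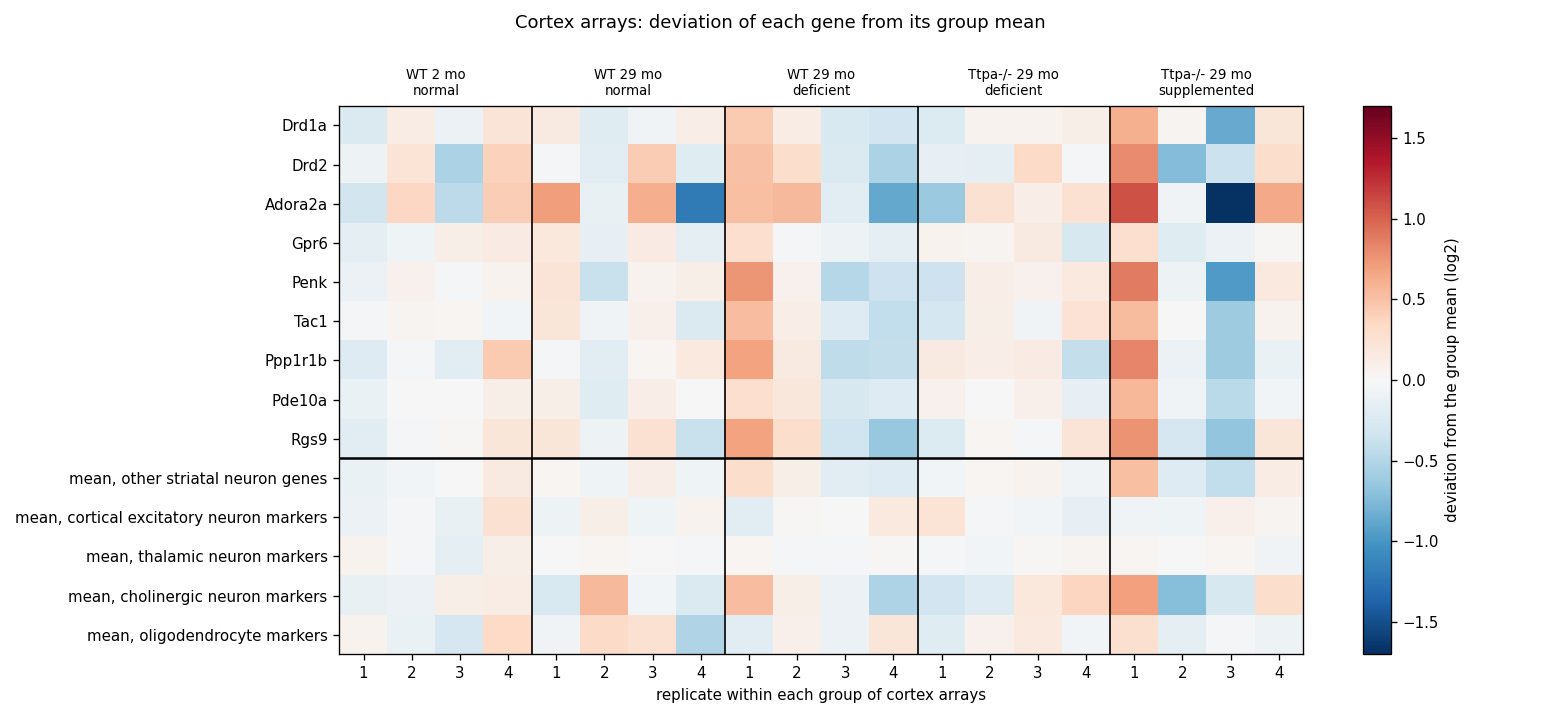
Deviation of each gene from the mean of its group (colour, log2) on each of the 20 cortex arrays (columns, replicate number below and group above), with the mean deviation of 5 other gene lists under the line. Replicate 1 of the wild-type deficient and Ttpa-/- supplemented groups is red for all 9 genes and replicate 3 of the latter is blue for all 9, and the row of other striatal neuron genes follows these arrays in weaker colours.

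Other lists were followed on the same arrays for signs of striatal or neighbouring tissue in the dissected cortex. Of 21 other striatal neuron genes, 16 were tested in the aging comparison, 14 with a lower mean (median -0.44) and 0 called by limma. In wild-type deficient cortex 15 of these 16 had a higher mean than in the controls (median 0.43), with 0 called. Of 16 tested in Ttpa-/- supplemented cortex, 1 had a lower mean than in the controls (median 0.21), with 0 called. In Ttpa-/- deficient cortex 11 of 16 had a higher mean (median 0.11) and 2 were called higher, Syndig1l, a synapse protein gene of the striatum listed on the arrays as Tmem90a (1.05 ± 0.24), and Rxrg, a retinoid receptor gene (0.72 ± 0.17). The 14 dopamine and cyclic AMP signalling genes had medians of -0.16 for aging and 0.05 for the wild-type deficient group, with 0 called in either. In Ttpa-/- deficient cortex their median was -0.02, with 7 of 14 lower, and Rgs7bp, which encodes a binding partner of Rgs9 and its relatives, was called lower (-1.05 ± 0.29). The summed signal of the 9 genes ran from 41.1 to 53.9 in aged control cortex, from 72.8 to 89.9 in young cortex, and from 38.0 to 111 over the Ttpa-/- supplemented arrays.

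The 10 cortical excitatory neuron markers had a median of -0.22 for aging, with 9 of 10 lower, and of -0.05 for the wild-type deficient group, with 0 called in either. In Ttpa-/- deficient cortex their median was 0.01, with 5 of 10 lower, and Slc17a7, a vesicular glutamate transporter gene, was called higher (0.71 ± 0.17).

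Oligodendrocyte and hippocampal neuron markers had lower medians in both deficient groups, with few calls. Of 8 oligodendrocyte markers, 8 had a lower mean in Ttpa-/- deficient cortex than in the controls (median -0.57), with Mal, a myelin gene, called (-0.80 ± 0.19). In wild-type deficient cortex 7 of 8 were lower (median -0.25), and with age 5 of 8 (median -0.02), with 0 called in either. Of 4 hippocampal neuron markers tested, 4 had a lower mean in Ttpa-/- deficient cortex (median -0.52), with Lct (-1.33 ± 0.29) and Prox1 (-0.61 ± 0.15) called. In wild-type deficient cortex 4 of 4 were lower (median -0.50), and with age 1 of 4 (median 0.43), with 0 called in either. In Ttpa-/- supplemented cortex 2 of 8 oligodendrocyte markers (median 0.03) and 4 of 5 hippocampal markers tested (median -0.10) had a lower mean, with 0 called. In both deficient groups 9 of 9 medium spiny neuron genes had a higher mean, as they had in Ttpa-/- supplemented cortex against the same controls (median 0.40).

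The summed signal of the 9 choroid plexus markers, another tissue that a dissection can carry, ran from 3.01 to 197 over the cortex arrays, with 7 to 9 of them above background, and 0 were called in these comparisons. The 4 midbrain dopamine and 6 thalamic neuron markers gave 0 and 1 calls for aging, with medians of 0.24 and 0.20, and the 3 cholinergic neuron markers tested gave 0, with a median of -0.45. The part of any of these in the differences above was not tested.

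The named genes were then set against all others. Over the 20 cortex arrays, the mean deviation of the 8 genes above background on all of them was compared with each of 22207 other genes, whose median r was 0.0597. The highest r belonged to A_55_P1969027, a probe without a gene name at chr11:109121142-109121201 (mm9, minus strand), 34413 bases from the Rgs9 probe, with r = 0.957. Rgs9, on the same strand, is 1 of the 8 genes of the mean deviation. Whether this probe measures Rgs9 itself was not tested. Next were Adcy5, the adenylyl cyclase of medium spiny neurons (0.938), Slc5a7, the choline transporter of cholinergic neurons (0.904), and the unnamed probe A_55_P2329825 on chromosome 14 (0.904). Lrrc10b was also among the first 10 (0.888), as were Gm5868, Slc35d3, Tmem90a and Gng7, a G-protein subunit that works with Adcy5 (0.878 to 0.862). Without taking off the group means, the first 10 held Serpina9, Dmkn and Sh3rf2 in place of Adcy5, Tmem90a and Gng7, led by the same unnamed probe.

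Of the other lists, 8 of 16 other striatal neuron genes were among the first 100 of the 22207 (median r = 0.72), and 2 of 14 dopamine and cyclic AMP signalling genes. The median r was 0.241 for choroid plexus, 0.209 for oligodendrocyte, 0.0944 for hippocampal, -0.162 for thalamic and -0.249 for cortical excitatory neuron markers, with 0 of these lists' genes in the first 100. It was 0.4 for the 4 midbrain dopamine and 0.0104 for the 6 cerebellar neuron markers. Of 3 cholinergic neuron markers, Slc5a7 was the one near the top, with a list median of 0.194.

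**Figure D4:**
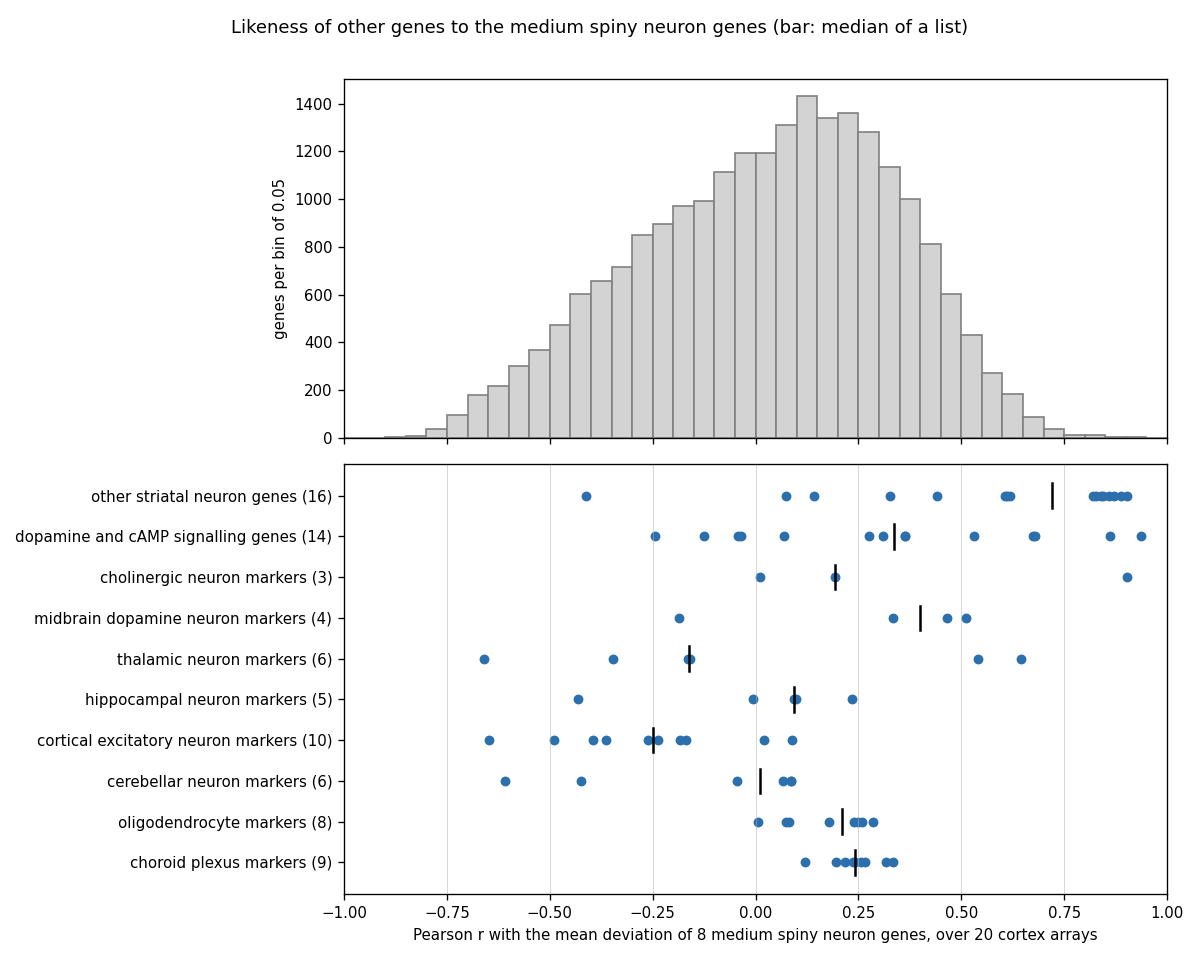
Upper panel, number of genes (y axis) by Pearson r (x axis) of their deviations with the mean deviation of 8 medium spiny neuron genes over 20 cortex arrays, for 22207 genes. Lower panel, each gene of 10 lists at its r, with a bar at the list median; the other striatal neuron genes have a median of 0.72, and the cortical excitatory neuron markers one of -0.25.

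In the cerebellum, 8 of the 9 genes could be tested, since Drd1a was above background on all 4 arrays of no group. Aging was the comparison with calls, and all its young arrays were on one slide and all its aged arrays on another, so slide and age cannot be told apart. Tac1 (2.39 ± 0.69, adjusted p = 0.0208), Drd2 (0.99 ± 0.30, adjusted p = 0.0261) and Rgs9 (0.96 ± 0.30, adjusted p = 0.0377) were called higher in aged cerebellum, 3 of 8 genes, against 3.99% of all probes called higher. Tac1 was at 1.79, 1.14, 2.01 and 1.78 in aged cerebellum, against -3.64, -2.48, 1.27 and 2.01 in the young one, so the groups overlapped and young replicates 1 and 2 were far below the other arrays. Rgs9 was also lowest on these arrays, with -1.37, -1.72, -0.46 and 0.23 in young and 0.08, 0.03, 0.36 and 0.04 in aged cerebellum. Drd2 was at -4.70, -4.58, -4.16 and -3.51 in young cerebellum, with replicate 1 not above background, and at -3.17, -3.48, -3.01 and -3.32 in the aged one, so the groups lay just apart. With normexp correction its difference was 0.34 (adjusted p = 0.128).

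Without young replicates 1 and 2, limma called 0 of 8 genes, and Tac1 differed by 0.04, Rgs9 by 0.24 and Drd2 by 0.59. Also 0 were called without any 1 of young replicate 1, young replicate 2 and aged replicates 1, 3 and 4, and Rgs9 was not called without aged replicate 2. Of 6 thalamic neuron markers tested, 2 were called higher and 1 lower in aged cerebellum, with 2 of 6 means lower. Slc17a6, a glutamate transporter gene of thalamus and brain stem, was 1 of those called higher (2.68 ± 0.87). It was at -5.17, -1.93, 1.99 and 2.63 on the same young arrays, low where Tac1 and Rgs9 were low. Ttr, a choroid plexus gene, was at 7.78, 4.64, 2.55 and 1.19 there and at -5.66 to -2.63 in aged cerebellum. The summed signal of the choroid plexus markers was 9.03 to 252 in young and 6.36 to 7.20 in aged cerebellum. The midbrain dopamine neuron genes Th (0.93 ± 0.15) and Ddc (0.94 ± 0.26) were also called higher in aged cerebellum, and 1 of the 3 tested had a lower mean. Of 12 other striatal neuron genes tested, Rasd2 was called higher (0.68 ± 0.20) and 3 had a lower mean. The part of any of these in the Tac1 and Rgs9 differences was not tested. Penk and Ppp1r1b differed by 0.07 ± 0.24 and -0.01 ± 0.23 with age in cerebellum.

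The other cerebellum comparisons gave 0 calls among the 8 genes. Between wild-type deficient mice and the controls 1.28% of all probes were called, and 1 of the 8 genes had an unadjusted p under 0.05. Against the same controls it was 4.46% for Ttpa-/- deficient (1 gene unadjusted) and 4.91% for Ttpa-/- supplemented mice (2 genes unadjusted). Between Ttpa-/- deficient and wild-type deficient mice it was 4.94%, and between the diets in Ttpa-/- mice 0.343%, with 0 genes at an unadjusted p under 0.05 in either. Tac1 lay at -0.73 to 1.54 and Penk at 4.91 to 5.53 over the 8 Ttpa-/- cerebellum arrays.

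Whether aging differed between the regions was tested as an interaction, in which the cerebellum side again crosses slides. Rgs9 (-2.17 ± 0.43, adjusted p = 0.00351) and Drd2 (-1.75 ± 0.42, adjusted p = 0.0192) were called, both with a lower mean in aged cortex and a higher mean in aged cerebellum, 2 of 8 genes against 1.11% of all probes called lower. All 8 differences were below 0, with a median of -1.19. Without young cerebellum replicates 1 and 2, 0 were called, with -1.46 for Rgs9 (adjusted p = 0.0865) and -1.35 for Drd2 (0.235), and without either of them alone Drd2 was not called. With normexp correction the Drd2 value was -0.68 (adjusted p = 0.0723). For Ttpa-/- deficient mice against the controls, Drd2 was called (1.51 ± 0.42, adjusted p = 0.0238), 1 of 8 genes against 2.19% of all probes called higher. That call was lost without Ttpa-/- cortex replicate 3 or Ttpa-/- cerebellum replicate 4 of the deficient diet, at 1.40 and 1.45, and with normexp correction, at 0.54.

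Where a gene had several probes, the brightest stood for it. For Rgs9, a second probe shifted by 6 bases tracked it in cortex (r = 0.996), while the last, on another transcript, was above background on 5 of 20 cortex and 14 of 20 cerebellum arrays and lay between -6.23 and -3.95. For Pde10a, the second probe gave 0.21 to 1.38 in cortex and tracked the first (r = 0.965), and the last was above background on 0 of 40 arrays. The second probes thus followed the first, and the last probes carried little or no signal.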

How the data were processed

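The authors deposited, for each of 40 arrays, the scanner table of Agilent Feature Extraction (10.7.3.1 per the file headers, 10.1.1.1 in the submitters' processing notes), whose processed signal (an intensity) already had background and spatial trend removed. The authors also deposited log2 values. These equalled the scaled signal, with each probe's mean over the 40 arrays taken off, to a median absolute difference of 0.00085. Non-uniform and population-outlier spots were left out (95 to 148 per array), spots of a probe were averaged, and log2 of the array's 75th percentile was subtracted. Of 55681 probes, 55589 were kept.

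Groups came from the labels. Groups were compared with limma 3.58.1 in R 4.3.3, with 1 coefficient per group, no block, and Benjamini-Hochberg adjustment over the probes that passed Agilent's background test on all 4 arrays of some compared group. Interactions used the same model. In this model the SE of a probe pools its spread within the groups of both regions. The brightest probe stood for a gene. All 9 members were named throughout, whatever their values, and from other lists at most 4 called genes per list and comparison. The members and lists were chosen with earlier results of these data known. Likeness was described over genes above background on at least 10 of 20 cortex arrays, and 1 of the first 10 is not reported here. Replicate numbers were not taken to pair mice, and the arrays of the regions were fitted as separate mice, which the labels neither state nor exclude. The fit was tested on simulated data. The alternatives were other scalings, normexp (offset 50), the deposited log2 values, no filter, the compared groups alone, a replicate block, the methods' t-test, averaged probes and leaving out arrays. The number of arrays limits the precision. Probe positions are mm9 and start windows GRCm38.p6.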

Additional observations from a re-analysis of the deposited data

Results flagged for a closer look

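Of 90 sets of 4 arrays (9 genes in 10 groups), 7 held 1 array far from the other 3, a gap that chance gives in about 1 in 20 such sets. In Ttpa-/- cortex on the deficient diet, replicate 1 was far below the others for Drd1a (-0.61, with the next at -0.33), Adora2a (-0.91, next -0.16) and Penk (4.43, next 4.87), and replicate 4 was far below for Ppp1r1b (3.96, next 4.47). In the cerebellum, Drd1a in young replicate 4 was at -4.66 (next -6.58), Adora2a in replicate 2 of Ttpa-/- on the supplemented diet at -2.28 (next -3.27), and Ppp1r1b in replicate 4 of wild type on the deficient diet at 4.21 (next 4.42).

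By limma, 3 of 16 interaction tests of these genes were called. For aging it was 2 of 8 genes, against 1.11% of all probes called lower. For Ttpa-/- deficient mice it was 1 of 8, against 2.19% called higher. The aging calls were lost without young cerebellum replicates 1 and 2, and the Drd2 calls with normexp correction. Slide and condition cannot be told apart in these tests. The aging difference in cortex minus that in cerebellum was -1.75 for Drd2 and -2.17 for Rgs9, and the difference of Ttpa-/- deficient from wild-type normal was 1.51 for Drd2.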

How the results depend on the processing

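The number of genes called kept within 1.5 times its value in most alternatives, and no called difference changed sign in any. With median scaling the count was 1 for Ttpa-/- deficient against wild-type normal in cortex, 1 for aging in cerebellum, 3 for cortex against cerebellum at 29 months, and 1 and 0 for the interactions of aging and of Ttpa-/- deficient. Median scaling moved the median of all probes by up to 0.178. Quantile normalization gave 2 for the deficient diet in wild-type cortex and 1 in wild-type cerebellum. Normexp correction gave 1 and 0 for the interactions. Without the filter on dim probes the deficient diet in wild-type cortex gave 0. The compared groups alone gave 0 there, 0 for aging in cerebellum and 1 for Ttpa-/- supplemented against wild-type normal in cerebellum. With the replicate number as a block, the deficient diet in wild-type cortex gave 2, and the other 16 counts and 23 gene results kept their call; no comparison had all 4 same-number correlations over 0.1, but 5 of 15 had 3 of 4 (up to 0.664), with 3 of 4 arrays closest to their own number, a hint from the data and not from the design. The methods' t-test gave 0 after adjustment for the deficient diet in wild-type cortex and for aging in cerebellum. Unadjusted it gave 7 and 1, and 2 each for the deficient diet in wild-type cerebellum and for Ttpa-/- supplemented against wild-type normal in cerebellum. Without the 3 cortex arrays the deficient diet gave 0, and without the 2 young cerebellum arrays aging in cerebellum and its interaction gave 0; both were chosen after the values were seen. Leaving out each array gave 0 to 3 for aging in cortex, 0 to 7 for the deficient diet and 0 to 2 for Ttpa-/- deficient against wild-type normal in cortex. It gave 0 to 3 for aging in cerebellum, 6 to 6 and 3 to 6 for the regions at 2 and 29 months, 1 to 3 for the interaction of aging and 0 to 1 for that of Ttpa-/- deficient, and 0 to 0 in all other comparisons. The causes were not tested. A term for the slide could not be fitted except in comparisons within 1 slide, which it leaves unchanged. Of the first 10 genes by likeness, 9 were shared with quantile normalization.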
